A study of Homo sapiens with 20 samples.

Results

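CBP and p300 are paired lysine acetyltransferases that work as coactivators at enhancers and promoters, and dCBP-30 is a heterobifunctional degrader that brings them to the ubiquitin ligase receptor cereblon. This account is about the genes whose newly made RNA was low 2 h after dCBP-30 was added to MM1.S cells, a human multiple myeloma line, and was back near its control level at 24 h. The genes were chosen by measured values. New RNA was taken as T>C RPM, the T>C reads of a gene scaled to 1000000 reads on genes, averaged over 3 libraries, and a gene was a member if log2 of dCBP-30 over DMSO, with 0.5 RPM added to each side, was -1 or lower at 2 h and -0.25 or higher at 24 h, with at least 2 RPM under DMSO at both times. The rule found 118 genes of 19593, among 5581 that reached the DMSO floor and 577 of those that were lost at 2 h. Of the other genes lost at 2 h, 289 were still at a log2 of -1 or lower at 24 h (kept low) and 170 lay in between.

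In SLAM-seq, cells take up 4-thiouridine (4sU) into the RNA they are making, and a chemical step turns the label into T-to-C changes in the reads, so that T>C reads stand for RNA made during the labelling while total reads stand for all RNA present. A gene whose mRNA is short-lived has a high T>C share, since most of its copies are recent. Early response genes, feedback inhibitors and apoptosis regulators are well known for such mRNAs. Many of them carry AU-rich elements in their 3′ UTRs that bind decay factors, and many are driven by inducible factors such as NF-kB that use CBP and p300 as coactivators.

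The cells received 10 nM dCBP-30 or the vehicle DMSO for 2, 6 or 24 h, with 3 libraries for each of the 6 groups, and 100 µM 4sU for the last 1 h. A further 2 libraries had no 4sU. All 20 libraries came from 1 established line, so the replicates measured the spread between samples of that line. The 10 plasma cell markers checked were at 95.6 RPM or more of total reads under DMSO, and 17 of 20 markers of other lineages stayed under 1 RPM (highest 10.9). Libraries held 12439672 to 18727376 reads on genes. T>C reads made up 4.71% to 8.62% of reads in labelled libraries and 0.794% to 0.809% without 4sU.

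The 2 h and 24 h values chose the members and are given as a description, with no test. The 6 h libraries were not used by the rule, and only the 6 h difference was tested. The median T>C log2 value of the members was -1.39, -0.97 and 0.10 at the 3 times in order. All genes at the DMSO floor had medians of 0.04, -0.15 and -0.36. In total reads the member medians were -0.38, -0.62 and 0.84, against 0.06, 0.14 and 0.24. At 6 h the T>C log2 value was -1 or lower in 58 members, between -1 and -0.25 in 45, and -0.25 or higher in 15.

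**Figure D1:**
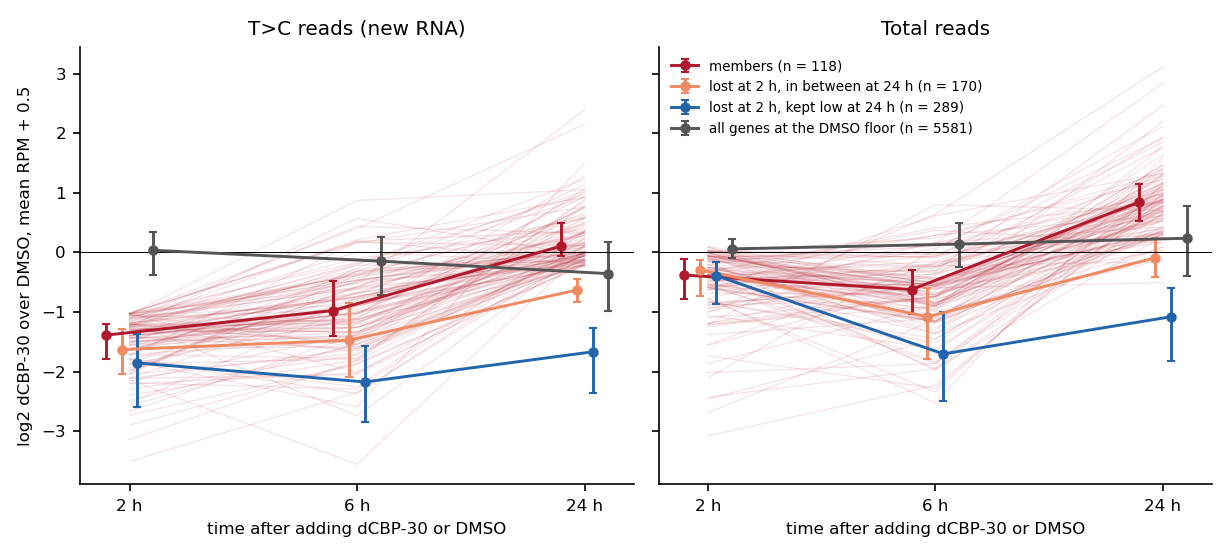
Log2 of dCBP-30 over DMSO at 2, 6 and 24 h in T>C reads (left) and total reads (right). Thin lines are the 118 members, and points with bars are medians and quartiles of the members, the 170 genes in between, the 289 kept low and the 5581 genes at the DMSO floor. The member median moved from -1.39 through -0.97 to 0.10 in T>C reads, and the kept-low median was -1.85, -2.17 and -1.67.

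By the way the members were chosen, their level under dCBP-30 had to gain on DMSO from 2 h to 24 h, so the levels are given as a description. Under dCBP-30 the T>C level at 24 h was above that at 2 h in 118 of 118 members and over 2-fold above in 117. Under DMSO 8 members changed over 2-fold between these times. The median member was at 2.37 RPM at 2 h, 3.87 RPM at 6 h and 11.5 RPM at 24 h under dCBP-30, and at 7.51, 7.65 and 9.54 RPM under DMSO. The level under dCBP-30 rose in order from 2 h to 6 h to 24 h in 100 members, while 17 were lower at 6 h than at 2 h. Together the members took 2.75% ± 0.0728, 2.72% ± 0.114 and 2.40% ± 0.0158 (SD, n = 3) of all T>C reads under DMSO at 2, 6 and 24 h, and 0.995% ± 0.0509, 1.84% ± 0.109 and 4.32% ± 0.147 under dCBP-30.

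The 24 h value depended on the scale. These are bulk samples of 1 line and no spike-in entered the values, so fewer cells and less RNA per cell cannot be told apart. TMM, a scaling that sets most genes' total reads level between libraries, gave factors of 1.29 to 1.32 for the dCBP-30 24 h libraries against 0.893 to 0.935 for DMSO 24 h. On that scale all 118 members were still at -1 or lower at 2 h, and all were above -1 at 24 h, but 46 of 118 reached -0.25 and their median was -0.40. The genes at the DMSO floor moved by a like amount, to a median of -0.83. Scaled by each library's T>C reads, the member median at 24 h was 0.46, all 118 were at -0.25 or higher, and 98 were at -1 or lower at 2 h.

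**Figure D2:**
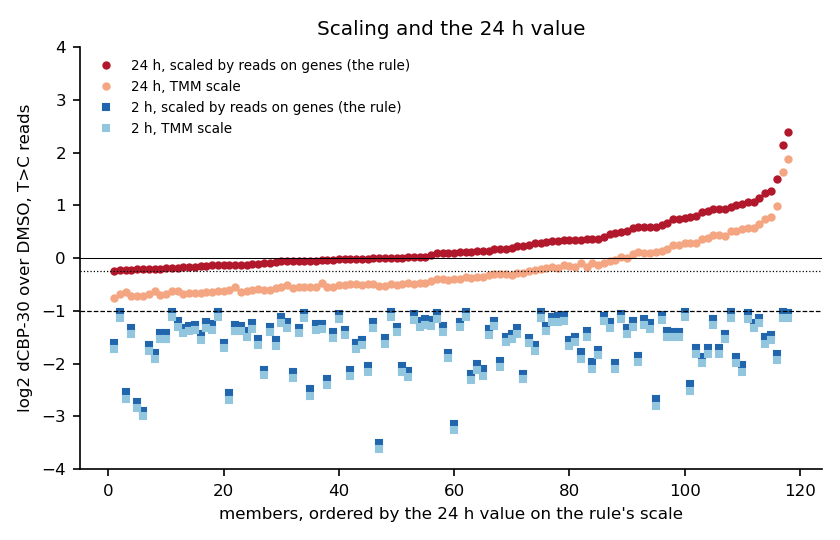
T>C log2 of dCBP-30 over DMSO for each of the 118 members at 24 h (circles) and 2 h (squares), scaled by reads on genes as in the rule (dark) or by TMM (light). Members are ordered by the 24 h value, the dotted line is the 24 h cut-off of -0.25 and the dashed line the 2 h cut-off of -1. On the TMM scale 46 members stay above the 24 h cut-off and none falls to -1 at 24 h.

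The T>C reads of the dCBP-30 24 h libraries also carried fewer conversions each. The ratio of counted conversions to T>C reads was 1.47 ± 0.0431 over all genes and 1.52 ± 0.0239 over members in those libraries (SD, n = 3), against 2.48 and 2.75 under DMSO at 24 h, and members stood at 2.34 to 2.46 in the other labelled groups. The part of this in the 24 h values was not tested. With the T>C share of each gene without 4sU taken off, 111 of 118 members kept a log2 of -0.25 or higher at 24 h.

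Sequences of the members were read where they bear on the 2 features described above, inducible promoters and short-lived mRNA. RefSeq promoters on GRCh38.p14, from 250 bases before to 50 after the start, were matched for 98 members. The NF-kB motif, searched on both strands, was in 13 of these 98 (13.3%), in 6.37% of the matched genes at the DMSO floor, in 5.96% of those kept low and in 5.72% of all 27305 promoters. The ETS motif CCGGAAG was in 7.14% of member promoters and 23.1% at the floor. The E-box CACGTG was in 14.3% and 11.9%, the GC box GGGCGG in 78.6% and 72.5%, CCAAT in 33.7% and 38.8%, TATAAA in 7.14% and 4.83%, TTCNNNGAA in 4.08% and 5.46%, TGANTCA in 3.06% and 3.79%, TGACGTCA in 2.04% and 3.90%, and the CArG box in 0% and 1.17%. Over all promoters these shares were 10.7%, 7.43%, 44.6%, 35.7%, 11.95%, 7.88%, 7.76%, 1.98% and 1.29% in the same order. A match is letters in a window and not a bound site, and motifs can overlap one another. Besides the 4 members shown, the NF-kB match was in ARHGEF3, ARL6IP5, BMF, CYREN, IL23A, NOTCH2NLA, RGL1, TMSB4X and WNT10A. The 4 were picked because their products act in or beside that pathway or in death receptor signalling. Their stretches are upstream of the start, with the NF-kB match in capitals.
NFKBIA promoter (chr14:35404796-35404855, minus strand, match from 81 to 72 bases before the start): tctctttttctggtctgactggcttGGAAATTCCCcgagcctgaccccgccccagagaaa
NFKBIZ promoter (chr3:101827742-101827801, plus strand, match from 223 to 214 bases before the start): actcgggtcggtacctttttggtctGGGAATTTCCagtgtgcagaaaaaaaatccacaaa
IRF1 promoter (chr5:132490789-132490848, minus strand, match from 50 to 41 bases before the start): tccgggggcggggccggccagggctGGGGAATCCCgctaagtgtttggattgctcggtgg
CFLAR promoter (chr2:201118594-201118653, plus strand, match from 97 to 88 bases before the start): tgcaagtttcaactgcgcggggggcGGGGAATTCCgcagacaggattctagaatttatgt

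The AU-rich heptamer TATTTAT was searched on the transcript strand of hg38 in the last 500 bases of each 3′ UTR that was at least that long. It was in 22 of 108 members (20.4%), in 17.2% of the genes kept low and in 14.7% of those at the DMSO floor. Searched in the same way, TGTANATA was in 21.3%, 18.75% and 14.9% of these sets, and AATAAA in 74.1%, 83.6% and 75.8%. Anywhere in the UTR, MCL1, JAG1 and SPRED1 had 5 TATTTAT matches each, ZFP36 had 3 and BTG2 had 1. The 30-base stretches shown have 1 such match each in capitals, from members with a high T>C share or several matches. Those of MCL1 and JAG1 also hold a further match that overlaps it and runs on in small letters. The BTG2, JAG1 and SPRED1 stretches lie outside the last 500 bases of the UTR.
ZFP36 3′ UTR (chr19:39409181-39409210, plus strand): aatgggcccttTATTTATgacgactttatt
MCL1 3′ UTR (chr1:150574258-150574287, minus strand): ctgtcttgattTATTTATttattatttttt
BTG2 3′ UTR (chr1:203307528-203307557, plus strand): aaatgaagagcTATTTATatatattatttt
JAG1 3′ UTR (chr20:10639131-10639160, minus strand): gatcatagtttTATTTATatttattgactc
SPRED1 3′ UTR (chr15:38351960-38351989, plus strand): gcatttttgtaTATTTATgcattaggtgat

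All 118 passed the filter on low counts, and 61 (51.7%) fell in T>C reads by edgeR's quasi-likelihood test, at an adjusted p under 0.05 and beyond 2-fold, against a background of 11.6% of all genes tested. Among genes at the DMSO floor the share was 18.4%. None rose, against 5.19% of all genes tested, and at an adjusted p under 0.1 the count was 1 (PDCD4, named after its values were seen). By edgeR 2 members were higher at an unadjusted p under 0.05, and by DESeq2 1 was, with none called. In 80 members every dCBP-30 library was below every DMSO library, against 19.8% of genes tested, and in 2 every one was above, against 15.8%. On the TMM scale 73 members fell against 17.1% and none rose against 2.36%. Scaled by T>C reads, 40 fell against 8.19% and 1 rose against 12.4%. Among genes named by rule, 13 lost their T>C call on that scale, namely CDC42EP3, DUSP6, ID3, MAPKAPK2, MCL1, NFKBIA, PPP1R9B, RAB43, SLC44A1, TLNRD1, UBE2H, ZNF652 and ZNF827. On the 3 scales the genes at the DMSO floor had a 6 h median of -0.15, -0.43 and 0.18 and the members one of -0.97, -1.25 and -0.67.

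The genes that were later kept low stood lower at 6 h than the members. Their T>C median at 6 h was -2.17 and that of the genes in between was -1.47. Of the 289 kept low 265 (91.7%) fell in T>C reads at 6 h, and of the 170 in between 116 (68.2%) did. In total reads 219 (75.8%) and 90 (52.9%) fell. No test of the difference between these sets was made, since all were drawn by neighbouring values of 1 rule.

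Fewer members fell in total reads. At 6 h 30 members (25.4%) fell in total reads by the same test, against 5.94% of all genes tested, and 29 of them also fell in T>C reads. None rose, against 14.3%, while at an unadjusted p under 0.05 edgeR had 5 higher and DESeq2 6, with none called. Among those of edgeR, IL23A (0.82, adjusted p = 4.24e-04), TXNIP (0.65, adjusted p = 0.0062) and CYREN (0.37, adjusted p = 0.0256) were higher after adjustment but short of 2-fold. Groups did not overlap downward in 84 members, against 13.7%, and upward in 7, against 40.4%. The scale mattered more here. With TMM 58 members fell against 8.67% and none rose against 7.47%, while over all genes the calls went from 731 lower and 1764 higher to 1064 lower and 916 higher. In T>C reads they went from 1174 lower and 525 higher to 1720 and 238. At 24 h the total log2 value was above 0 in 115 members, at 1 or higher in 39, and above the gene's own T>C value in 111. In 107 members all 3 dCBP-30 libraries held more total RPM at 24 h than all 3 DMSO libraries. The rule used these 24 h libraries, and the matching shares over all genes were not counted. Genes at the DMSO floor also had a 24 h median above 0 in total reads (0.24), with an upper quartile of 0.79. On the TMM scale the 24 h member median in total reads was 0.33 and 28 members were below 0.

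**Figure D3:**
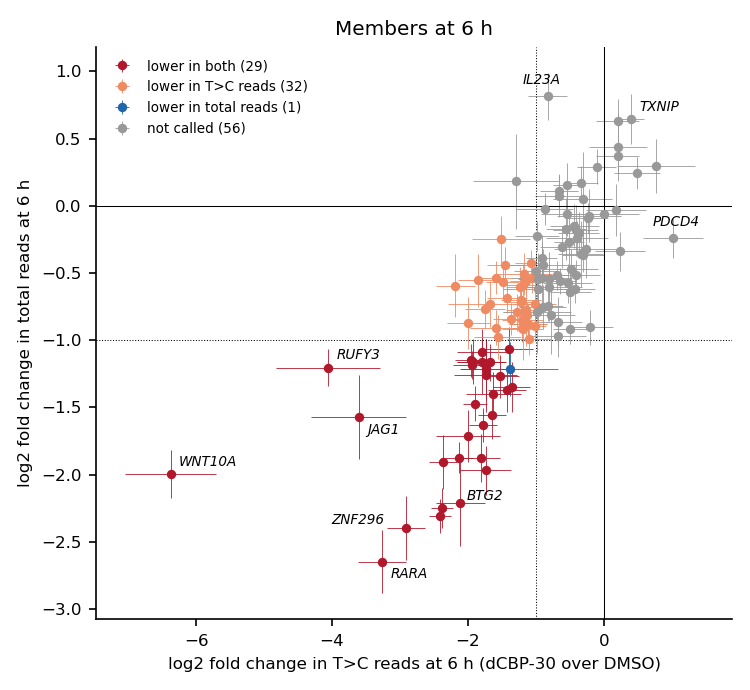
Log2 fold change of each member at 6 h in T>C reads (x axis) against total reads (y axis), dCBP-30 over DMSO, with bars of 1 SE from edgeR. Of the 118 members 29 fell in both, 32 in T>C reads alone, 1 in total reads alone and 56 in neither. Dotted lines mark a log2 of -1.

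The T>C share under DMSO at 6 h, the part of a gene's reads that was new, was 16.8% for the median member, 13.1% for genes in between, 15.2% for genes kept low and 9.96% for genes at the DMSO floor. It was 50% or more in 14 members. In these 14 total reads were lower too, with total log2 values at 2 h from -3.08 to -0.82 and 13 at -1 or lower. In the 40 members with a share under 10%, total log2 at 2 h ran from -0.54 to 0.10 and none was at -1. The T>C medians at 2 h were -1.84 and -1.25 in these sets. At 24 h the total medians were 1.10 and 0.63. T>C reads are counted within total reads, and the rule required the T>C fall at 2 h. Total values at 2 h thus follow in large part from the T>C share and the choice of members. These figures describe and do not test. The 3′ UTR had a median length of 2215 bases in members and 1912 at the DMSO floor, with a T content of 29.7% and 29.2%.

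BTG2, an antiproliferative factor that recruits the deadenylase complex and is also a p53 target, stood at 79.6, 95.9 and 95.01 T>C RPM in the 3 DMSO libraries at 2 h and at 7.48, 7.55 and 7.41 under dCBP-30, the lowest 2 h log2 value of all members (-3.51). At 6 h it stood at 94.9, 96.2 and 109.6 under DMSO and 21.9, 16.6 and 19.3 under dCBP-30. At 24 h the groups overlapped, at 133, 119 and 109 under DMSO and 105, 93.7 and 161 under dCBP-30. It fell at 6 h, with a log2 fold change of -2.38 (SE 0.17, adjusted p = 1.89e-18) in T>C reads and -2.25 (SE 0.15, adjusted p = 7.05e-12) in total reads.

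ZFP36, which encodes tristetraprolin, a protein that binds AU-rich elements and speeds decay, went from 39.1, 35.0 and 35.8 T>C RPM under DMSO at 6 h to 5.82, 5.69 and 9.78 under dCBP-30. Its groups lay apart at 2 h too (28.5, 28.7 and 34.9 against 4.34, 8.76 and 5.93), and at 24 h dCBP-30 held 43.0, 40.1 and 51.9 against 36.1, 37.4 and 40.9. The 6 h log2 fold change was -2.37 (SE 0.21, adjusted p = 2.10e-14). ZC3H12A (regnase-1), an RNase that destroys inflammatory mRNAs, was -1.65 with an adjusted p of 2.46e-09. KLF9, a Krüppel-like factor, was at -0.98 (adjusted p = 0.169). Of the 34 decay regulators at the DMSO floor 4 were members and 3 of these fell in T>C reads at 6 h. Of 21 immediate-early genes at the floor 3 were members, and 2 of these fell.

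The 3 members from the NF-kB list encode IκB proteins. NFKBIA encodes IκBα, which holds NF-kB in the cytoplasm and is itself induced by it. Its T>C level at 2 h was 89.0, 87.0 and 88.0 RPM under DMSO and 29.8, 36.6 and 33.7 under dCBP-30. At 6 h it was 74.5, 93.3 and 87.0 and 38.5, 34.4 and 38.0, a log2 fold change of -1.20 (SE 0.15, adjusted p = 1.45e-09). At 24 h dCBP-30 libraries held 96.5, 82.8 and 109, all above the DMSO libraries (70.1, 75.1 and 79.7). NFKBIE, a related inhibitor, was at -0.49 at 6 h (adjusted p = 0.26), with overlapping groups. NFKBIZ, a nuclear IκB protein that directs a subset of NF-kB targets, was at -0.78 (adjusted p = 0.11), and fell with TMM (-1.10). Its 3 dCBP-30 libraries (3.34, 3.40 and 3.28) were below its 3 DMSO libraries (5.86, 5.04 and 6.34). Of 21 genes in the NF-kB list at the DMSO floor 3 were members, and 2 were kept low.

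Of 8 interferon-stimulated genes at the DMSO floor 2 were members, and of 19 cytokine, JAK and STAT genes 2 were. IRF1, an interferon regulatory transcription factor, was at 54.2, 56.9 and 66.5 T>C RPM under DMSO at 2 h against 6.91, 7.17 and 8.48 under dCBP-30. At 6 h it was at 66.8, 72.0 and 66.2 against 20.9, 12.5 and 21.9, and at 24 h at 68.4, 59.9 and 61.9 against 52.1, 51.8 and 60.6. It fell at 6 h, with a log2 fold change of -1.89 (SE 0.17, adjusted p = 7.28e-14) in T>C reads and -1.47 (SE 0.13, adjusted p = 1.67e-09) in total reads. Its 24 h log2 value of -0.21 lies close to the cut-off. STAT2, a subunit of the interferon-activated factor ISGF3, and IFNAR1, a chain of the type I interferon receptor, were at -0.39 (adjusted p = 0.599) and -0.42 (adjusted p = 0.328) at 6 h. STAT2 total reads at 24 h were 176, 174 and 211 RPM under dCBP-30 and 49.8, 56.7 and 57.6 under DMSO, with no overlap.

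**Figure D4:**
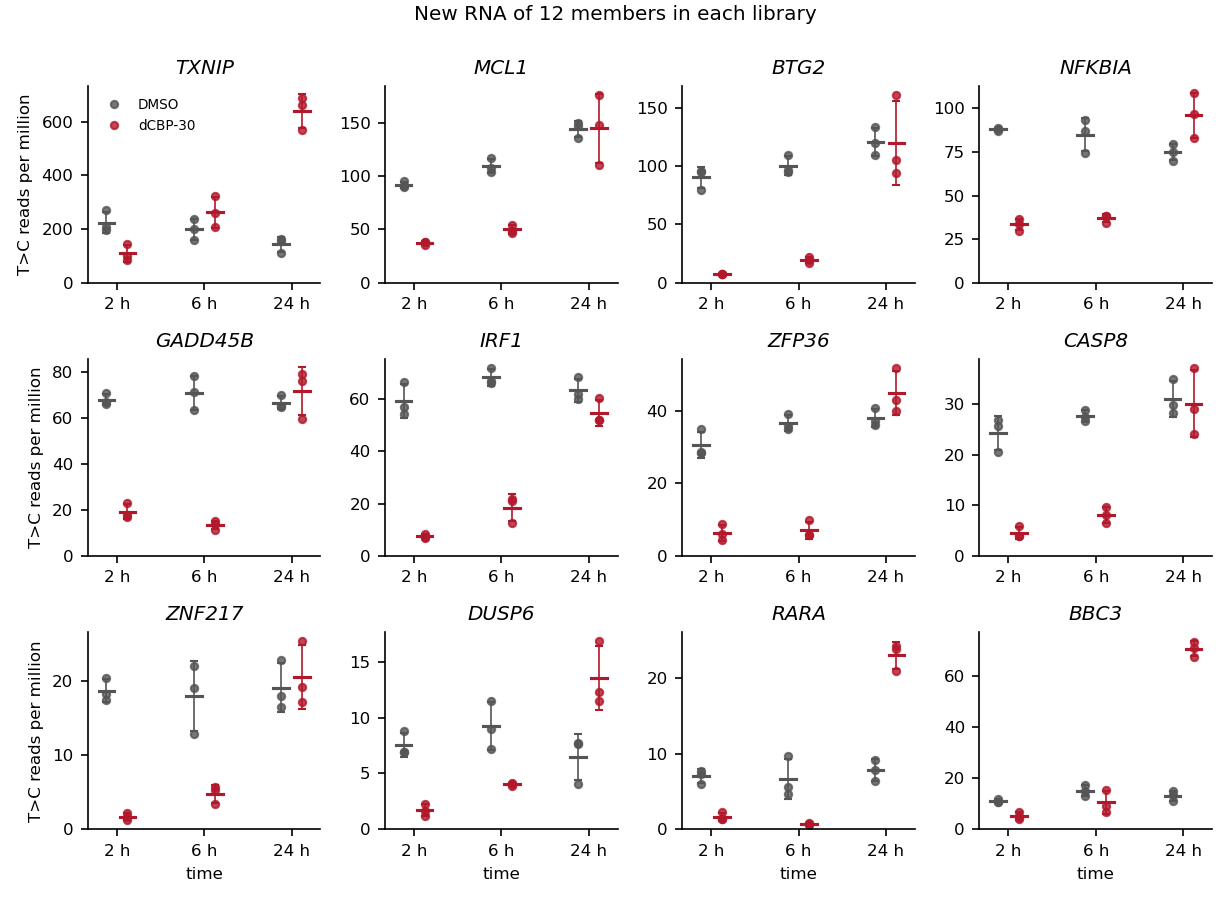
T>C RPM in each library for 12 members at 2, 6 and 24 h, with DMSO in grey and dCBP-30 in red. Points are the 3 libraries of a group, horizontal lines their mean and bars 1 SD. TXNIP, RARA and BBC3 under dCBP-30 lie above DMSO at 24 h in every library, while MCL1, BTG2, CASP8 and ZNF217 overlap.

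Apoptosis regulators of both directions were members. MCL1, an antiapoptotic BCL2 protein on which myeloma cells are known to depend, was at 95.4, 90.6 and 89.6 T>C RPM under DMSO at 2 h and 38.1, 37.8 and 34.9 under dCBP-30. At 6 h it was at 117, 104 and 108 and 48.8, 54.5 and 46.9, and at 24 h at 149.7, 147 and 136 and 148, 111 and 176. The groups lay apart at 2 h and 6 h and overlapped at 24 h. New MCL1 RNA fell at 6 h, with a log2 fold change of -1.13 (SE 0.14, adjusted p = 4.34e-09), and one of -0.76 scaled by T>C reads, short of 2-fold. Its total reads were at -0.82, and at -1.13 and past the cut-off with TMM.

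BBC3 encodes PUMA and BMF a further BH3-only protein, both of which promote apoptosis by binding BCL2 proteins. BBC3 was at 10.7, 10.6 and 11.8 T>C RPM under DMSO at 2 h against 3.78, 6.86 and 4.80 under dCBP-30, and at 11.1, 14.9 and 13.3 against 71.1, 67.7 and 73.6 at 24 h, the highest 24 h log2 value of the members (2.39). In total reads at 24 h it was at 31.4, 30.1 and 33.3 RPM against 228, 230.1 and 231. At 6 h neither moved past the test, at -0.53 (adjusted p = 0.0718) for BBC3 and -0.27 (adjusted p = 0.753) for BMF. BMF total reads at 24 h were 13.1, 13.9 and 15.9 RPM under DMSO and 83.8, 69.5 and 91.0 under dCBP-30. Of 12 BCL2 family genes at the DMSO floor 3 were members and 1 was kept low.

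CASP8, the initiator caspase of death receptors, and CFLAR, the caspase-8-like inhibitor c-FLIP, each have a 3′ UTR that overlaps an exon of another gene on the same strand, so their reads could be shared. CASP8 was at 28.9, 26.7 and 27.4 T>C RPM under DMSO at 6 h and 6.49, 8.10 and 9.57 under dCBP-30. CFLAR was at 25.6, 27.6 and 26.3 and 5.29, 5.94 and 6.85. They fell at 6 h, with log2 fold changes of -1.78 (SE 0.21, adjusted p = 2.75e-10) and -2.14 (SE 0.22, adjusted p = 2.69e-12). At 24 h both groups overlapped, with log2 values of -0.04 and -0.10. These were grouped by role with the values known, as was every set below that is not called a list.

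Stress genes stood apart from one another at 6 h. TXNIP, an arrestin-like protein that binds thioredoxin and limits glucose uptake, had the highest level of all members. It was at 270.4, 207 and 195 T>C RPM under DMSO at 2 h and 101, 82.7 and 144 under dCBP-30, a log2 value of -1.03 just inside the cut-off. At 6 h the groups overlapped, at 158, 238 and 201 and 323, 259.6 and 206, a log2 fold change of 0.40 (SE 0.19, adjusted p = 0.14) that did not pass the test. In total reads at 6 h they lay apart, at 209, 300 and 259 RPM under DMSO and 479, 417 and 305 under dCBP-30. That log2 fold change was 0.65 (adjusted p = 0.0062), short of 2-fold. At 24 h TXNIP was at 112, 157 and 163 T>C RPM against 568, 662 and 689, and in total reads at 135, 187 and 190.4 RPM against 1332, 1681 and 1435.

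PPP1R15A (GADD34), which restores translation after eIF2α phosphorylation, was at -0.91 in T>C reads at 6 h, short of 2-fold, and at -1.23 and lower with TMM. Its total reads at 24 h were 22.1, 27.1 and 20.7 RPM under DMSO and 86.9, 98.3 and 87.4 under dCBP-30. DDIT4 (REDD1), a stress-induced inhibitor of mTORC1, fell at 6 h, with a log2 fold change of -2.11 (SE 0.35, adjusted p = 3.42e-06). Without 4sU 35.2% of its reads already carried T>C changes, the highest share among members, and its call held with that background taken off (log2 fold change -2.01). GADD45B, a stress-induced regulator of p38 and JNK signalling and in the p53 list, was lower at 6 h (11.4, 13.7 and 14.9 T>C RPM) than at 2 h (16.9, 23.0 and 17.7) under dCBP-30. DMSO held 63.4, 71.1 and 78.3 at 6 h, and the log2 fold change was -2.41 (SE 0.17, adjusted p = 1.54e-18) in T>C reads and -2.31 (SE 0.13, adjusted p = 1.80e-13) in total reads. At 24 h dCBP-30 held 76.2, 59.6 and 78.9 against 64.8, 70.0 and 65.0. TSC22D3 (GILZ), known as a glucocorticoid-induced leucine zipper protein, fell at 6 h, with a log2 fold change of -1.49 (SE 0.25, adjusted p = 2.70e-06).

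The 3 feedback inhibitors of the ERK pathway fell at 6 h, except DUSP6 when scaled by T>C reads and SPRED2 when summed over transcripts. DUSP6, a phosphatase that removes the activating phosphates of ERK, was at 9.01, 11.5 and 7.19 T>C RPM under DMSO at 6 h and 4.15, 3.90 and 4.05 under dCBP-30. SPRED1 and SPRED2, which keep RAF from being activated by Ras, were at 4.27, 3.69 and 5.18 and 3.93, 3.57 and 3.65 under DMSO at 2 h and at 0.482, 0.254 and 0.237 and 0.241, 0.254 and 0 under dCBP-30. The 3 genes had log2 fold changes of -1.20 (SE 0.30, adjusted p = 0.00187), -1.80 (SE 0.36, adjusted p = 1.01e-04) and -1.74 (SE 0.46, adjusted p = 0.00335). Summed over transcripts SPRED2 no longer passed the test (-1.38, adjusted p = 0.118), and scaled by T>C reads DUSP6 was at -0.84. At 24 h the T>C log2 values were 1.01, -0.13 and 0.59, and in total reads 1.64, 0.96 and 1.32. Of 11 genes in the list at the DMSO floor these 3 were members, 2 were kept low and 6 were not lost at 2 h.

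Of 35 plasma cell identity factors and surface antigens at the floor 24 were kept low and 2 were members. MEF2D, a MADS box factor, fell at 6 h, with a log2 fold change of -1.67 (SE 0.22, adjusted p = 6.25e-09), with 25.5, 30.2 and 26.8 T>C RPM under DMSO and 9.30, 7.30 and 9.36 under dCBP-30. ID3, an inhibitor of basic helix-loop-helix factors, was at -1.15 with an adjusted p of 0.00234, and at -0.84 and short of 2-fold without dCBP-30 6 h replicate 1. At 24 h ID3 stood at 24.4, 21.3 and 31.3 T>C RPM under dCBP-30 and 11.02, 13.3 and 6.54 under DMSO, with no overlap.

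RARA, a retinoic acid receptor, had the lowest 6 h total value. Its T>C level was 9.66, 5.53 and 4.65 RPM under DMSO at 6 h and 0.87, 0.68 and 0.489 under dCBP-30, a log2 fold change of -3.26 (SE 0.36, adjusted p = 3.71e-11). Its total reads went from 36.1, 28.5 and 24.0 to 3.75, 4.39 and 6.01 RPM, a log2 fold change of -2.65 (SE 0.23, adjusted p = 1.61e-09). At 24 h dCBP-30 held 24.3, 21.04 and 23.9 T>C RPM against 6.36, 7.90 and 9.19, above every DMSO library.

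The 4 zinc finger members fell at 6 h, except ZNF652 (-0.70) and ZNF827 (-0.998) when scaled by T>C reads. ZNF296 went from 35.3, 22.2 and 20.1 to 2.48, 2.29 and 5.59 T>C RPM, a log2 fold change of -2.91 (SE 0.27, adjusted p = 6.02e-12) that is lower than its 2 h value of -1.16. ZNF217, a corepressor partner, was at 17.4, 20.4 and 18.3 under DMSO at 2 h and 1.69, 1.21 and 2.13 under dCBP-30, and fell at 6 h, with a log2 fold change of -1.92 (SE 0.25, adjusted p = 4.49e-09). ZNF827 and ZNF652 were at -1.36 and -1.06, and ZNF652 was at -0.96 and short of 2-fold without dCBP-30 6 h replicate 2. Of 120 zinc finger genes at the floor 6 were lost at 2 h, of which these 4 were members.

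Of the signalling lists, Notch, WNT, BMP and TGF-β gave 4 members of 24 genes at the floor, and 3 fell at 6 h. WNT10A, a secreted WNT ligand, had 298 T>C reads over the 3 DMSO libraries at 6 h and 3 over the 3 dCBP-30 libraries. The latter were 0.223% of its reads, below its T>C share without 4sU (0.394%), so they were no more than background and no fold is given. In total reads it went from 131, 115 and 109 to 22.2, 28.1 and 38.8 RPM, a log2 fold change of -1.996 (SE 0.18, adjusted p = 2.05e-09). At 24 h its T>C level was 5.51, 7.96 and 9.06 under DMSO and 9.94, 2.54 and 10.3 under dCBP-30. JAG1, a Notch ligand, went from 2.25, 3.95 and 2.96 to 0.401, 0.124 and 0.21 T>C RPM at 6 h, with 149 and 11 reads. SKIL, a corepressor of SMAD signalling, fell, with a log2 fold change of -1.63 (SE 0.41, adjusted p = 0.00183), and SMAD1, a BMP effector, was at -0.81 (adjusted p = 0.265), with overlapping groups, and at -1.31 and lower without DMSO 6 h replicate 1. RUFY3, an adaptor of lysosome transport, had 1.22, 1.397 and 3.26 T>C RPM under DMSO at 6 h and 0.334, 0 and 0 under dCBP-30, from 96 and 5 reads. Its T>C share under dCBP-30 at 6 h (0.654%) was also below that without 4sU (1.10%).

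Chromatin regulators were 2 of 95 genes at the floor. BMI1, a Polycomb subunit, fell, with a log2 fold change of -1.79 (SE 0.37, adjusted p = 1.54e-04), though its 3′ UTR is shared with the readthrough gene COMMD3-BMI1. KMT2E, of the trithorax-like family, was at -0.70 and short of 2-fold, and at -1.01 with TMM. Of 4 phosphatase members DUSP6 and PPP1R9B, a spinophilin that targets protein phosphatase 1, fell. PPP1R9B (-1.68, adjusted p = 0.0392) lost its call with DESeq2 (adjusted p = 0.0619), with background taken off and scaled by T>C reads. The call was also lost with reads summed over transcripts (adjusted p = 0.172) and with the 6 h libraries fitted alone (adjusted p = 0.0863). Without DMSO replicate 2, dCBP-30 replicate 2 or dCBP-30 replicate 3 it was lost too (adjusted p = 0.244, 0.0834 and 0.197). PTPRE, a receptor-type tyrosine phosphatase, was at -0.91 (adjusted p = 0.141) and passed at -1.48 without dCBP-30 6 h replicate 1.

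Among 79 solute carriers at the floor 4 were members. SLC44A1, a choline transporter, fell, with a log2 fold change of -1.14 (SE 0.24, adjusted p = 2.52e-04). SLC38A2 and SLC35D1, which carry neutral amino acids and nucleotide sugars, were at -0.56 and -0.11 with adjusted p of 0.194 and 0.842, and their groups overlapped in T>C reads. Of 83 small GTPase genes 4 were members. RAB43, whose reads equal those of ISY1-RAB43 and mostly mapped to several places, fell, with a log2 fold change of -1.12 and was at -0.89 to -0.99 and short of 2-fold without any 1 of 3 libraries (DMSO replicate 3, dCBP-30 replicate 1 or 2). ARHGAP30, ARHGEF3 and DENND4C were at -0.49, -0.44 and 0.01 and not called. ARHGAP30 passed in T>C reads when summed over transcripts (-1.05, adjusted p = 0.0067), and in total reads with TMM (-1.23), when summed over transcripts (-1.07) and without dCBP-30 6 h replicate 3 (-1.01). Of 99 ubiquitin ligase genes TRIM8 fell, with a log2 fold change of -1.81 (SE 0.29, adjusted p = 1.55e-06), and KLHL5 at -0.41 did not pass.

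The lists held no member among 142 ribosomal protein genes, 36 cell cycle regulators, 24 heat shock chaperones, 26 G protein signalling genes, 65 protein kinases by symbol, 30 deubiquitinases or 20 sterol and fatty acid genes at the floor. Single members came from other lists. ATP6V0A1, a proton pump subunit, fell, with a log2 fold change of -1.17, and ZBTB18 was at -0.66 with an adjusted p of 0.174. C16orf54 and C21orf91, genes named as open reading frames, were at -0.96 and -0.42 and not called, and C16orf54 passed at -1.12 without dCBP-30 6 h replicate 3. In all 50 members were in a list and 68 in none, and members were 2.11% of the genes at the floor.

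Among the 68 members outside the lists, 11 were put together as actin, myosin and cell cortex genes after their values were seen, with no count of such genes at the floor and no test. These were TMSB4X, MYL12A, CORO1C, ABI1, SPTBN1, CDC42EP3, TLNRD1, TRIP10, BIN2, ANXA6 and S100A11, and 9 of them fell in T>C reads at 6 h, against 51.7% of all members, with log2 fold changes over the set from -2.19 to -0.49. None passed the 2-fold cut-off in total reads. Several were lower short of it by edgeR, at an adjusted p under 0.05 and with no overlap, among them BIN2 (-0.85), TLNRD1 (-0.79) and SPTBN1 (-0.68). With TMM TLNRD1 fell (-1.11), and single-gene values with TMM were read only for genes named by rule. TMSB4X, the main actin monomer binding thymosin, and MYL12A, a myosin regulatory light chain, were at -2.19 and -1.99 in T>C reads and at -0.60 and -0.87 in total reads. At 24 h their total log2 values were -0.51, the lowest of all members, and 1.03. Of TMSB4X reads 11.9 in 100 mapped to several places. TLNRD1 fell, with a log2 fold change of -1.28 (SE 0.19, adjusted p = 3.62e-07). The T>C share was 2.76% for S100A11 and 3.63% for TMSB4X, among the lowest of the members. Under dCBP-30 at 6 h the share of TMSB4X was 1.2%, against 0.601% without 4sU, and that of ANXA6 1.46% against 1.31%. Under DMSO at 6 h the ANXA6 share was 2.27%, so background made up a large part of its T>C reads in both groups.

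A set of 13 transcription and nuclear genes (ARID3B, BAZ2A, TOP2B, STAG2, PROX1, RREB1, ATAD2B, RESF1, TSC22D3, TCF25, AKNA, SUN2 and HNRNPLL) had 4 that fell in T>C reads at 6 h. A set of 9 signalling genes (among them RGL1, CYTH1, SH2D3C, PIK3CG, DAPP1, PIP4P1, MAPKAPK2 and PLEKHO1) had 4, and so did 9 immune genes (PELI1, TRAF3IP3, IFI16, IL23A, NFATC2, APOL1, TAPBPL, SEMA4B and SNX20). Beside these counts, 51.7% of all members and 11.6% of all genes tested fell. The sets were drawn with the values known and were not tested. MAPKAPK2, a kinase downstream of p38, fell, with a log2 fold change of -1.23 (SE 0.21, adjusted p = 4.18e-06). PELI1, a ubiquitin ligase of Toll-like receptor signalling, and TRAF3IP3, a TRAF3 partner, fell, with log2 fold changes of -1.85 and -1.74. IL23A, a subunit of interleukin 23 whose promoter also held an NF-kB match, was at -0.83 in T>C reads and 0.82 in total reads, opposite in sign and neither past 2-fold.

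Of 6 membrane traffic genes (RUBCN, RUFY3, IGF2R, ARL6IP5, ISY1-RAB43 and EMB) 4 fell in T>C reads at 6 h. This count and those of the small sets below stand beside 51.7% of all members and 11.6% of all genes tested. The call of ISY1-RAB43 rests on the same reads as RAB43 above, whose call was lost without any 1 of 3 libraries (-0.89 to -0.99). ARL6IP5, an endoplasmic reticulum protein, was at 29.2, 18.7 and 21.1 T>C RPM under DMSO at 2 h and 2.49, 3.81 and 2.85 under dCBP-30, and fell at 6 h, with a log2 fold change of -1.96 (SE 0.23, adjusted p = 2.54e-10). UBE2H, a ubiquitin-conjugating enzyme, was at -1.02 and lost its call without DMSO replicate 1 or 3 or dCBP-30 replicate 1 or 2 (-0.94 to -0.99). LONRF1 was not called. HMCES, which shields abasic sites in DNA, fell, with a log2 fold change of -1.94, and CYREN, a regulator of end joining, was at 0.20. MIB1, NOTCH2NLA and PTCH1 act in Notch or Hedgehog signalling and 2 of them fell, though NOTCH2NLA has near-identical copies and its reads mostly mapped to several places. Of ST8SIA4, B3GNT2, GYG1 and PTGR3, enzymes of glycans and small molecules, 2 fell. TMBIM1 and PDCD4 were put with CASP8 and CFLAR, and PDCD4 was the member with the highest 6 h value (1.02, adjusted p = 0.0961). SNN, N4BP2L1, JAKMIP2, CEP68 and TMC6 were left without a stated role, and 1 of these fell.

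Genes lay close on both sides of each cut-off. Just inside the 2 h cut-off were CEP68, IFNAR1 and CYREN at -1.01, -1.02 and -1.02, and just outside it CAMSAP2, TNK2 and CSRNP1 at -0.99 each. Just inside the 24 h cut-off were CDC42EP3, JAKMIP2 and RESF1 at -0.25, -0.22 and -0.22, and just outside it STK4, GALM and GRK2 at -0.25, -0.26 and -0.27. In 113 members every dCBP-30 library was below every DMSO library at 2 h, and at 24 h the groups overlapped in 86 and dCBP-30 was above in 32. The rule used these libraries, so these counts follow in large part from the choice of members. The matching shares over all genes were not counted. In 3 members the 3 dCBP-30 libraries at 2 h held 10 T>C reads or fewer.

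Reads of some members could belong to other genes. The 3′ UTR overlapped an exon of another gene on the same strand in 9 members and on the opposite strand alone in 19, and over 10 in 100 reads mapped to several places in 5. The methods name a forward-stranded kit and default counting without spelling out its strand setting, so reads of antisense partners were not separated here. Without the 12 members whose reads could be shared in the first or last way, 51 of 106 fell in T>C reads at 6 h and 27 in total reads. The highest T>C shares without 4sU were those of DDIT4 (35.2%) and C21orf91 (16.0%), against a median of 0.66% over members.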

How the data were processed

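SLAM-seq 3′ end libraries of MM1.S cells were analysed from tables of 20 libraries. Per the labels and the study's methods, the authors trimmed reads with Trim Galore and used the Slamdunk workflow on hg38, which counts reads and T>C reads over 3′ UTRs, and deposited whole-number counts per transcript. The methods name a forward-stranded 3′ kit and default Slamdunk parameters, and do not spell out the strand setting of the counting. The labels do not say that replicates came from separate cultures, so p-values measure the spread between these samples, which may be technical.

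The transcript with the most reads stood for each gene. T>C RPM is T>C counts scaled to 1000000 reads on genes, total RPM likewise. Counts passing filterByExpr (minimum 10) were fitted over the 18 labelled libraries with edgeR 4.0.16 (R 4.3.3, limma 3.58.1), a quasi-likelihood fit with 1 mean per group and library sizes of all reads on genes. A call needed a Benjamini-Hochberg adjusted p under 0.05 over all genes tested and a change beyond 2-fold. Fold changes at 2 h and 24 h carry a pseudocount of 0.5 RPM. The fit was tested on simulated counts with 200 changed genes. DESeq2 1.42.0, TMM, scaling by T>C reads, a background subtraction and omission of single libraries were alternatives. Replicates of the same number were compared by the correlation of their deviations.

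Members and gene lists were chosen with earlier results of these data known. The grouping of members outside the lists and the 3′ UTR motif search were added after their values were seen. Named genes were the 20 members with the highest T>C RPM under DMSO at 6 h, the 5 with the largest calls, up to 4 per list and the 3 on either side of each cut-off. Others named were chosen after their values were seen. Some members that the rule names are not reported here.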

Additional observations from a re-analysis of the deposited data

How the results depend on the processing

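The number of members was 58 with TMM, 46 of them among the 118, and 70 with a 24 h cut-off of 0. It was 80 to 173 under the other rules tried. With reads summed over transcripts it was 81, with 73 of them among the 118. Scaled by T>C reads it was 162, with 93 among the 118. The median T>C log2 value at 6 h was -1.25 with TMM, -0.67 scaled by T>C reads and -0.87 with reads summed over transcripts. The median in total reads was -0.93 with TMM, and -0.70 to -0.60 without 1 library. The members that fell in T>C reads were 40 scaled by T>C reads and 52 to 63 without 1 library, and those that fell in total reads were 58 with TMM. The members that rose in T>C reads were 1 at an adjusted p under 0.1 and 1 scaled by T>C reads. The cause of these shifts was not tested.

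With the replicate number as a block 63 members fell in T>C reads and 30 in total reads. Same-numbered libraries had deviations that correlated at -0.065 to 0.020, so the samples share a number and no pairing was used. For the 61 genes named by rule, 1708 values under alternatives gave 1649 with the same call, 28 that gained a call, 31 that lost one and 0 called values that changed sign, while 26 changed sign in 13 values that were not called. Depth limits WNT10A, RUFY3 and JAG1 most, with 3, 5 and 11 T>C reads over the dCBP-30 6 h libraries.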
